A study of Mus musculus with 208 samples.

Results

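Neurons of the hippocampus and of the striatum were compared in control mice by sequencing the RNA of their nuclei. The comparison took every SAL-SAL library of the 2 regions, 26 of the 208 RNA-seq libraries of the series, with 13 libraries per region. A library had to reach at least 50% of the median total count of its region's table, and 0 libraries were left out by this rule. The lowest library of hippocampus stood at 65.7% of its table's median and the lowest of striatum at 61.4%. Genes were joined on their symbol, and 14133 of the 46403 joined genes had a mean of at least 1 CPM (reads of a gene scaled to the library's total) over the 26 libraries. The last gene to pass, Stat4, had a mean of 1.00 CPM, and the first to miss, Dclre1b, had 0.9997 CPM.

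The mice were wild-type C57BL/6NTac. SAL-SAL denotes saline at each stage: saline from the dam's minipump through gestation, saline injections of the pups over the first 2 postnatal weeks, fostering by drug-naive dams, and a saline injection in adulthood given 2 h before collection. Each library came from about 5000 nuclei carrying NeuN, a protein of neuronal nuclei, sorted from 2 mm punches of 1 region of 1 animal. The other conditions of the study gave morphine perinatally (MOR-SAL), the bacterial lipopolysaccharide LPS in adulthood (SAL-LPS), or both (MOR-LPS). Each region had 6 female and 7 male libraries. The titles give each library a replicate number in 2 parts, such as 10-3, and the 26 libraries carry 15 such numbers, 11 of them in both regions. A number was taken as 1 animal, since it belongs to 1 condition and 1 sex and each library was made from 1 animal. The first part of the number takes 7 values here, and the labels do not say what it stands for. The study took several mice from a litter, and which of these animals were litter mates was not identified. Total counts ran from 6036905 to 22488625 per library in hippocampus (median 9751759) and from 6658372 to 26176775 in striatum (median 10930689). Where a gene had 0 counts in a library, as many as 3 counts could have been missed, equal to 0.115 to 0.497 CPM depending on the library, counting error alone being covered.

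Most neurons of the hippocampus are glutamatergic: granule cells of the dentate gyrus and pyramidal cells of fields CA1, CA2 and CA3, which arise from the pallium. Most neurons of the striatum are GABAergic medium spiny neurons, which arise from the subpallium and split into a direct pathway, marked by the dopamine D1 receptor and the peptides substance P and dynorphin, and an indirect pathway, marked by the dopamine D2 receptor, an adenosine receptor (Adora2a) and enkephalin. Both regions also hold GABAergic interneurons, and the striatum holds scattered cholinergic interneurons. In bulk RNA of this kind, fewer cells of a type and less RNA per cell cannot be told apart.

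The region labels were first checked against these markers. For each library the mean log2(CPM + 1) was taken over 10 defining genes of medium spiny neurons and over 4 of telencephalic glutamatergic neurons. The medians were 3.32 in hippocampus and 7.13 in striatum for the medium spiny neuron score, and 5.04 and 1.11 for the glutamatergic score. Against the midpoints between these medians, 5.23 and 3.08, 23 of the 26 libraries fell on the side of their label on both scores. The libraries labelled striatum 3-2 and striatum 3-4 fell on the hippocampal side on both, with medium spiny neuron scores of 3.19 and 3.06 and glutamatergic scores of 4.18 and 4.24. The other 11 striatal libraries scored 6.65 to 9.39 and 0.573 to 1.56. The library labelled hippocampus 5-3 carried a striatal medium spiny neuron score, 7.25, beside a hippocampal glutamatergic score, 4.33, while the other 12 hippocampal libraries scored 2.53 to 5.02 and 4.05 to 6.65. All 3 libraries were from males. By correlation over all tested genes, the libraries labelled striatum 3-2 and 3-4 were closest to hippocampus 9-2 and hippocampus 4-3, and the library labelled hippocampus 5-3 was closest to striatum 10-1. In the other conditions, where a minimum total count of 0.5 times the median total of the region's count table left out 2 of 83 libraries, both hippocampal (and 0 in SAL-SAL), 0 of the remaining 81 went against their label on both scores and 13 did on 1 score. All 3 libraries were kept under their labels in the values below, and counts without them are given beside the lists, with fold changes for some of the genes. Since they were found by the 14 defining genes, their removal is not independent of those genes.

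**Figure D1:**
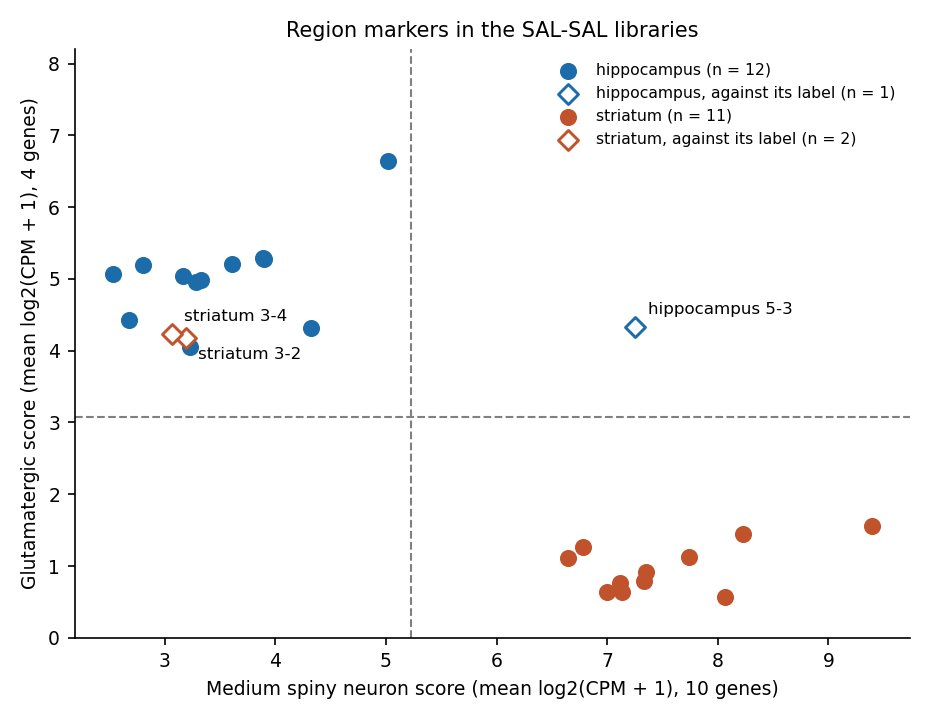
Each point is 1 SAL-SAL library, placed by its medium spiny neuron score (x axis, mean log2(CPM + 1) of 10 genes) and its glutamatergic score (y axis, the same over 4 genes), with dashed lines at the midpoints 5.23 and 3.08. Of the open diamonds, the libraries labelled striatum 3-2 and 3-4 lie among the hippocampal libraries, and the library labelled hippocampus 5-3 lies alone at the upper right.

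Of the 14133 genes tested, 2998 (21.2%) differed between the regions at an adjusted p under 0.05 in edgeR's quasi-likelihood test with Benjamini-Hochberg adjustment. Of these, 1552 (11.0% of the genes tested) were higher in hippocampus and 1446 (10.2%) in striatum. A fitted difference of at least 2-fold was found for 1272 genes (9.00%), 613 higher in hippocampus (4.34%) and 659 in striatum (4.66%). Fold changes are given below as log2FC, hippocampus minus striatum, so that positive values are higher in hippocampus, and the median over all genes tested was -0.02. The counts of the gene lists below are to be read against the 11.0% and 10.2% of all genes called in each direction, and a list with a share near these does not stand apart from other genes. Without the 3 libraries against their labels, 3637 genes (25.7%) passed, 1813 higher in hippocampus (12.8%) and 1824 in striatum (12.9%), among them 2793 of the 2998. With the animal as a block, which kept the 11 animals with both regions, 1649 genes (11.7%) passed, 818 higher in hippocampus (5.79%) and 831 in striatum (5.88%), and 1572 of these were among the 2998. The region comparison within females called 2668 genes and within males 184. The males hold all 3 libraries against their labels, and without them the males gave 1028. Libraries correlated over all tested genes at 0.914 ± 0.038 (SD over 78 pairs) within hippocampus, 0.922 ± 0.033 (78 pairs) within striatum and 0.883 ± 0.038 (169 pairs) between the regions.

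The 300 bases around the start of 4 marker genes are shown because these genes carry the label check and differ between the regions: Neurod6 and Neurod2, basic helix-loop-helix transcription factors of pallial glutamatergic neurons, and Drd2 and Tac1, the D2 receptor of the indirect pathway and the substance P precursor of the direct pathway. The sequences are RefSeq's for GRCm38.p6, from 250 bases before the gene start to 50 after it, 5′ to 3′ on the gene's strand. Capitals mark CAGATG, an E-box of the kind bound by basic helix-loop-helix factors, and TGACG, the core of the cAMP response element, each searched on both strands (as CATCTG and CGTCA on the other).
Neurod6, chr6:55681214-55681513, minus strand: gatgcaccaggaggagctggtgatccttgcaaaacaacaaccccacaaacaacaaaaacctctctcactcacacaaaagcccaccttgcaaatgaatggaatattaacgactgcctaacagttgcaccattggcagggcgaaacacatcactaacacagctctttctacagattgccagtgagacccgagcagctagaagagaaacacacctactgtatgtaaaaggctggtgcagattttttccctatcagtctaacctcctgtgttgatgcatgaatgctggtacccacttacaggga
Neurod2, chr11:98329596-98329895, minus strand: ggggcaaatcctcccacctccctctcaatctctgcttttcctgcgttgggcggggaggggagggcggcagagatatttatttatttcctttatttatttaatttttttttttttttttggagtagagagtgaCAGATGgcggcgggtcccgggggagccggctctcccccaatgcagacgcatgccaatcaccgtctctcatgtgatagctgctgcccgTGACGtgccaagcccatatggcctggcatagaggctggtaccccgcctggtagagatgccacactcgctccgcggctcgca
Drd2, chr9:49340153-49340452, plus strand: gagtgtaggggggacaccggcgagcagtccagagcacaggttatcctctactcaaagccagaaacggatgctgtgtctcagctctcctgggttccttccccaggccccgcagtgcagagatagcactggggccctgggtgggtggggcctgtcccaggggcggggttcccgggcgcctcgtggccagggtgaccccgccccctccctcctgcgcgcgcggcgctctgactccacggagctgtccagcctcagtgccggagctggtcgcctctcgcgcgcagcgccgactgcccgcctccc
Tac1, chr6:7554811-7555110, plus strand: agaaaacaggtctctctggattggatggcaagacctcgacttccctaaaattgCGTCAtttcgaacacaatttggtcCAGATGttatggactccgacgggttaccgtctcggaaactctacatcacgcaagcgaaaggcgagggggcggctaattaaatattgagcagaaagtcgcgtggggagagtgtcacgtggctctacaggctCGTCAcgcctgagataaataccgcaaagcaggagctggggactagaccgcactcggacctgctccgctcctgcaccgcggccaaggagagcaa
Counting from 1 at the 5′ end, Neurod2 held CAGATG at 133 to 138 and TGACG at 220 to 224. Tac1 held CAGATG at 78 to 83 and CGTCA, the reverse complement of TGACG, at 54 to 58 and 208 to 212. Neither motif was found in the windows of Neurod6 and Drd2. Among all 32851 promoter windows of this length, 17.2% held CAGATG and 20.8% held TGACG on either strand.

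Most markers of medium spiny neurons were higher in striatum. Of the 27 tested markers shared by both pathways, 21 were higher in striatum, 0 in hippocampus and 6 did not pass, with a median log2FC of -1.82. Without the 3 libraries 23 of the 27 were higher in striatum, with a median log2FC of -2.33. Ppp1r1b, which encodes DARPP-32, the phosphatase inhibitor that relays dopamine signals, ran from 0.335 to 65.5 (median 3.56) normalized CPM (CPM after TMM scaling) in hippocampus and from 1.61 to 491 (median 41.5) in striatum (log2FC -3.29 ± 0.71 (SE), adjusted p = 0.00161). Its highest hippocampal value was in the library labelled 5-3 and its lowest striatal values, 1.61 and 1.64, in those labelled 3-4 and 3-2. With these set aside the regions did not overlap, at a log2FC of -4.41. Rgs9, a regulator of G protein signalling enriched in striatum, ran from 23.1 to 575 (median 46.2) in hippocampus and 31.3 to 1581 (median 610.3) in striatum (log2FC -3.15 ± 0.58 (SE), adjusted p = 3.18e-04). Pde10a, the phosphodiesterase that breaks down cyclic nucleotides in these cells, was at 263 to 3647 (median 643) in hippocampus and 862 to 6128 (median 2486) in striatum (log2FC -1.64 ± 0.37 (SE), adjusted p = 0.0025). For Rgs9 and Pde10a the library labelled hippocampus 5-3 was the highest of its region, and the libraries labelled striatum 3-2 and 3-4 were the lowest of theirs. Without these libraries both genes separated the regions with no overlap, at log2FC of -4.29 (Rgs9) and -2.24 (Pde10a). Ppp1r1b, Rgs9 and Pde10a belong to the score that picked out these libraries, so their separation is not independent of that choice.

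Both pathways were represented. Of 9 direct pathway markers 6 were higher in striatum and 3 did not pass, and of 7 indirect pathway markers 6 were higher in striatum and 1 did not pass. The median log2FC was -1.98 for the direct and -3.21 for the indirect list. Leaving out the 3 libraries gave 7 of 9 and 6 of 7, with medians of -2.69 and -4.22, and the direct pathway call gained was Ebf1, a transcription factor of these neurons (log2FC -1.98 and adjusted p = 0.0715 with all libraries, -2.69 and 0.0148 without the 3). Drd1, the D1 receptor, had a lowest, median and highest value of 1.497, 2.65 and 32.01 normalized CPM in hippocampus and 2.25, 59.1 and 281 in striatum (log2FC -3.54 ± 0.57 (SE), adjusted p = 8.57e-05). Tac1 had 0, 3.83 and 43.7 in hippocampus and 4.97, 49.9 and 423 in striatum (log2FC -3.23 ± 0.67 (SE), adjusted p = 0.00106). The highest striatal library was 5-3 for both genes, and for Tac1 the regions overlapped also without the 3 libraries, since hippocampus 1-1 held 38.6. Pdyn, the dynorphin precursor, was at 2.54 to 74.9 (median 16.1) in hippocampus and 1.26 to 145 (median 51.3) in striatum (log2FC -1.66 ± 0.49 (SE), adjusted p = 0.0145), and did not pass with the animal as a block (adjusted p = 0.0916). Drd2 had a lowest, median and highest value of 0, 5.67 and 342 in hippocampus and 2.395, 179 and 552 in striatum (log2FC -3.32 ± 0.94 (SE), adjusted p = 0.0122). Adora2a, the adenosine receptor of the indirect pathway, had 0, 0.235 and 86.5 in hippocampus and 0.126, 55.1 and 382 in striatum (log2FC -4.05 ± 1.03 (SE), adjusted p = 0.0054), and Penk, the enkephalin precursor, 9.83, 30.1 and 540.5 in hippocampus and 7.22, 435 and 3013 in striatum (log2FC -3.21 ± 0.70 (SE), adjusted p = 0.00167). In all 3 indirect pathway genes the top hippocampal value came from the library labelled 5-3, and without the 3 libraries the regions were apart. Drd2 then reached at most 13.1 in hippocampus and at least 73.8 in striatum, and the log2FC without the 3 libraries was -5.61 for Drd2, -6.22 for Adora2a, -4.22 for Penk and -4.45 for Drd1. Drd1, Drd2, Adora2a and Penk belong to the score that picked out the 3 libraries. These separations and larger differences are therefore not independent of that choice.

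Most markers of glutamatergic neurons were higher in hippocampus. Of 18 tested markers of telencephalic glutamatergic neurons, 15 were higher in hippocampus, 0 in striatum and 3 did not pass, with a median log2FC of 2.15. Without the 3 libraries the count was 17 and the median log2FC 3.11. Slc17a7, the vesicular glutamate transporter VGLUT1, had a lowest, median and highest value of 58.8, 156 and 259.8 normalized CPM in hippocampus and 0.7704, 6.402 and 114 in striatum (log2FC 3.24 ± 0.56 (SE), adjusted p = 1.76e-04). The 2 striatal values above 13 were the libraries labelled 3-2 and 3-4, at 77.4 and 114. Without the 3 libraries the log2FC was 4.51, but Slc17a7 belongs to the glutamatergic score used to pick them out. Neurod2 had 15.5, 36.4 and 72.03 in hippocampus and 0, 0 and 22.5 in striatum (log2FC 4.62 ± 0.94 (SE), adjusted p = 9.20e-04), and all striatal libraries but those 2 were at or below 0.334, a level too close to 0 for a fold without them. Neurod6 had 17.6, 32.6 and 149 in hippocampus and 0, 0.154 and 11.6 in striatum (log2FC 5.12 ± 0.76 (SE), adjusted p = 3.69e-05). Neurod6 was the one defining marker that separated the regions with all 26 libraries under their labels: its lowest hippocampal value, 17.6, exceeded its highest striatal value, 11.6 in the library labelled 3-2. Tbr1, a transcription factor of early-born pallial neurons, was at 1.04 to 17.9 (median 3.25) in hippocampus and 0.133 to 8.91 (median 0.961) in striatum (log2FC 1.55 ± 0.54 (SE), adjusted p = 0.0389; adjusted p = 0.0649 with the animal block).

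**Figure D2:**
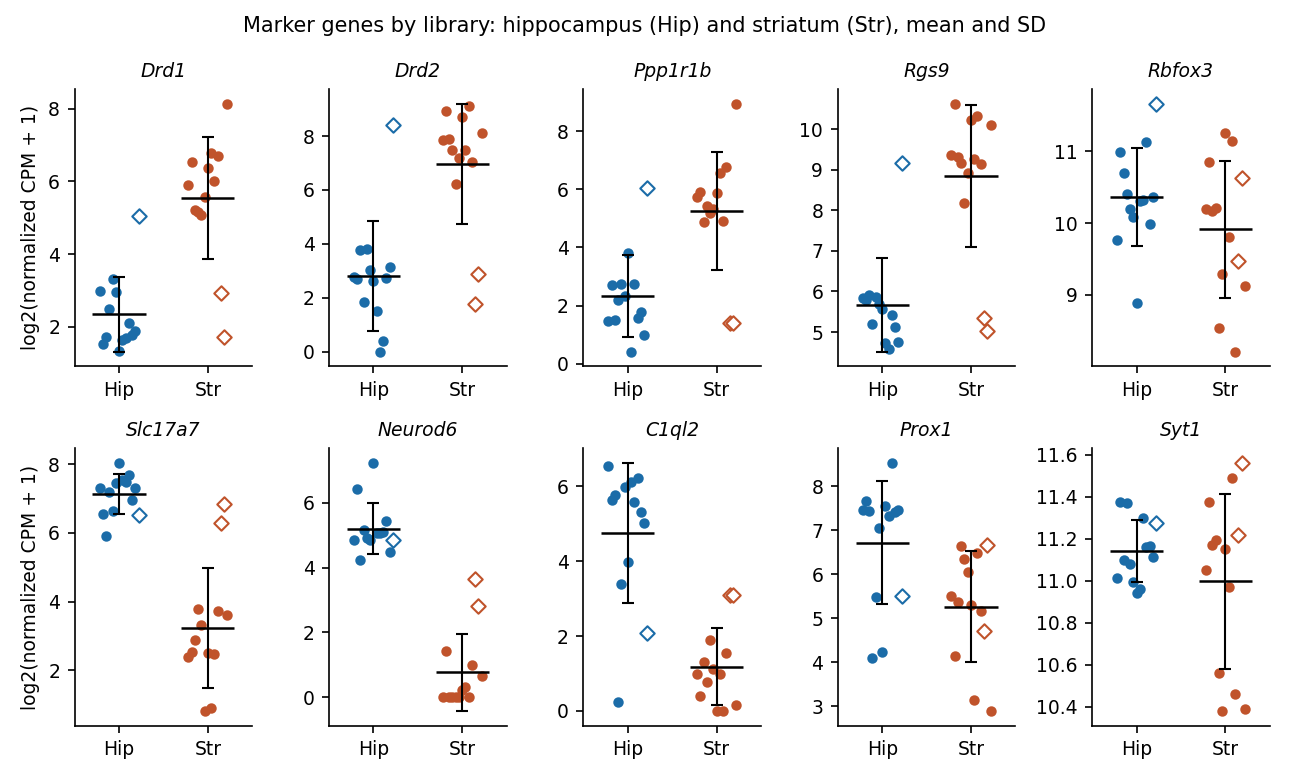
Levels of 10 genes by library, as log2(normalized CPM + 1) on the y axis, for hippocampus (Hip, n = 13) and striatum (Str, n = 13), with the mean (bar) and SD (whiskers) and the libraries against their labels as open diamonds. Drd1, Drd2, Ppp1r1b and Rgs9 lie higher in striatum and Slc17a7, Neurod6, C1ql2 and Prox1 in hippocampus, while the neuronal genes Rbfox3 and Syt1 did not pass the test.

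Most markers of dentate granule cells were also higher in hippocampus. Of 15 dentate markers 13 were higher in hippocampus and 2 did not pass (median log2FC 1.78), while 8 passed with the animal as a block and 13 without the 3 libraries. C1ql2, a secreted C1q-like synapse organizer of granule cells, had a lowest, median and highest value of 0.1696, 46.9 and 92.01 normalized CPM in hippocampus and 0, 0.986 and 7.56 in striatum (log2FC 4.50 ± 0.73 (SE), adjusted p = 9.89e-05). Both striatal values of 7.56 were the libraries labelled 3-2 and 3-4. Dsp, which encodes desmoplakin, was at 0 to 56.1 (median 22.95) in hippocampus, while all striatal libraries but that labelled 3-4, at 11.9, were at or below 0.101 (log2FC 5.12 ± 1.10 (SE), adjusted p = 0.00142). Glis3, a zinc finger transcription factor, ran from 20.96 to 1261 (median 357) in hippocampus and 1.21 to 259 (median 22.4) in striatum (log2FC 3.30 ± 0.67 (SE), adjusted p = 8.15e-04). Prox1, the homeobox factor of granule cells, had 16.1, 171 and 368 in hippocampus and 6.46, 40.3 and 101 in striatum (log2FC 1.53 ± 0.45 (SE), adjusted p = 0.0153), and did not pass with the block (adjusted p = 0.175).

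The hippocampal libraries differed among themselves in the level of dentate markers. The summed level of the 15 dentate markers was 627 CPM in hippocampus 9-0, 647 in 1-1, 1309 in 9-2 and 1404 in the library labelled 5-3, against 2944 to 6923 in the other 9. In striatum the sum ran from 756 to 2300.1. Hippocampus 9-0 held C1ql2 at 0.170 and Dsp at 0 normalized CPM, inside the striatal range of both genes. Of these 4 libraries, 1-1, 9-2 and 9-0 had the highest summed levels of the 10 CA1 markers among hippocampal libraries, at 1182, 845 and 824 CPM, while the median over hippocampal libraries was 485.

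Markers of the pyramidal fields were called in both directions. Of 10 CA1 markers 5 were higher in hippocampus, 1 in striatum and 4 did not pass (7 and 1 without the 3 libraries). Fibcd1, a membrane receptor used as a CA1 marker, was at 2.205 to 149 (median 45.4) normalized CPM in hippocampus and 2.801 to 51.7 (median 7.26) in striatum (log2FC 2.48 ± 0.45 (SE), adjusted p = 2.79e-04). Mpped1, a metallophosphoesterase-domain gene, was at 51.2 to 325 (median 116) in hippocampus and 18.4 to 188 (median 55.03) in striatum (log2FC 1.15, adjusted p = 0.0157; 0.0677 with the block). Wfs1, which encodes the endoplasmic reticulum protein wolframin, was higher in striatum, at 24.02 to 93.6 (median 42.8) in hippocampus and 14.3 to 210.5 (median 63.9) in striatum (log2FC -0.81 ± 0.29 (SE), adjusted p = 0.0469), and did not pass with the block (log2FC -0.27, adjusted p = 0.582). Of 8 CA3 markers 4 were higher in hippocampus, 1 in striatum and 3 did not pass, with the block 0 and 1 passed, and without the 3 libraries 4 and 1. Grik4, a kainate receptor subunit, was at 156 to 1342 (median 473) in hippocampus and 37.4 to 406 (median 212) in striatum (log2FC 1.38 ± 0.30 (SE), adjusted p = 0.00169; 0.0508 with the block). Bok, a BCL2 family member, was at 9.48 to 64.97 (median 25.5) in hippocampus and 6.16 to 17.4 (median 10.2) in striatum (log2FC 1.30, adjusted p = 5.72e-04; 0.0791 with the block). Of 7 CA2 markers 1, the neurotrophin gene Ntf3, was higher in hippocampus and 1, the calmodulin-binding peptide gene Pcp4, in striatum (2 and 1 without the 3 libraries). The CA2 defining genes Rgs14 (log2FC 0.53, adjusted p = 0.0876; 0.0474 with the block), Amigo2 (0.76, 0.137; 0.0259 without the 3 libraries) and Cacng5 (0.19, 0.614) did not pass. Of 5 genes marking the hippocampus as a whole 3 were higher there, also without the 3 libraries, and 0 passed with the block. Among them Zbtb20, a transcription factor of hippocampal projection neurons, ran from 70.2 to 3766 (median 1707) in hippocampus, with 9-0 the lowest, and 176 to 1112 (median 676) in striatum (log2FC 1.63 ± 0.37 (SE), adjusted p = 0.00254; 0.0666 with the block).

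Transcription factors of pallial patterning that passed the test were higher in hippocampus, and those of subpallial patterning were higher in striatum. Of 22 pallial factors tested 14 were higher in hippocampus and 0 in striatum (median log2FC 1.57). Of 24 subpallial factors 0 were higher in hippocampus and 14 in striatum (median -1.95). Without the 3 libraries these became 16 and 16, and with the block 10 and 13. Among pallial factors, Nfix, a nuclear factor I protein, was at 59.4 to 224 (median 156) normalized CPM in hippocampus and 14.03 to 163 (median 20.9) in striatum (log2FC 1.86 ± 0.40 (SE), adjusted p = 0.00141). Emx1, a homeobox factor of the pallial progenitor zone, was at 0.0509 to 18.8 (median 6.01) in hippocampus and 0 to 9.04 (median 0.534) in striatum (log2FC 2.24, adjusted p = 0.0343), and Bhlhe22, a basic helix-loop-helix repressor, at 0.848 to 10.6 (median 5.64) in hippocampus and 0 to 6.56 (median 0.193) in striatum (log2FC 2.76, adjusted p = 0.0113). The ranges of these 3 genes overlapped between the regions.

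Among subpallial factors, Lhx8, a LIM-homeobox factor of cholinergic neurons, had a lowest, median and highest value of 0, 0 and 1.22 normalized CPM in hippocampus and 0, 10.05 and 18.5 in striatum (log2FC -6.21 ± 0.96 (SE), adjusted p = 5.46e-05). Its single hippocampal library above 0 was that labelled 5-3, and its 2 striatal libraries at 0 were those labelled 3-2 and 3-4. Without these 3 libraries all hippocampal libraries were at 0, and striatum was at least 458-fold higher, taking 3 counts over the group as the floor. Pbx3, a TALE homeobox cofactor, was at 0.921 to 84.1 (median 22.8) in hippocampus and 45.6 to 649.7 (median 218) in striatum (log2FC -3.01 ± 0.48 (SE), adjusted p = 8.57e-05). Meis1, another TALE factor, was at 0 to 22.7 (median 3.64) in hippocampus and 2.899 to 89.7 (median 46.8) in striatum (log2FC -2.93 ± 0.60 (SE), adjusted p = 9.26e-04), and Isl1, a LIM-homeobox factor of direct pathway and cholinergic neurons, at 0 to 26.5 (median 0.2799) in hippocampus and 0 to 35.5 (median 13.3) in striatum (log2FC -2.87 ± 0.97 (SE), adjusted p = 0.0339). For Pbx3, Meis1 and Isl1 the library labelled hippocampus 5-3 was the highest of its region, and without the 3 libraries the regions did not overlap. The retinoid receptors Rarb and Rxrg, which also belong to the retinoic acid list, were at 2.66 to 261 (median 15.4) and 0 to 50.5 (median 3.92) in hippocampus and at 10.7 to 529 (median 247) and 2.08 to 188 (median 47.4) in striatum. Both were higher in striatum (Rarb log2FC -3.004 ± 0.60 (SE), adjusted p = 7.42e-04; Rxrg log2FC -3.05 ± 0.71 (SE), adjusted p = 0.00284).

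Dopamine signalling genes were mostly higher in striatum. Of 21 dopamine genes 15 were higher in striatum, 1, the D5 receptor gene Drd5, in hippocampus, and 5 did not pass (median log2FC -1.60). Leaving out the 3 libraries gave 17 higher in striatum and 1 in hippocampus. With the block 14 were higher in striatum and 0 in hippocampus, Drd5 having a log2FC of 1.95 and an adjusted p of 0.0377 with all libraries and 0.139 with the block. Beyond the D1 and D2 receptors, Drd3, the D3 receptor, had a lowest, median and highest value of 0, 0.5598 and 2.302 normalized CPM in hippocampus and 0.882, 6.002 and 17.2 in striatum (log2FC -3.53 ± 0.68 (SE), adjusted p = 5.58e-04). Th, tyrosine hydroxylase, the rate-limiting enzyme of dopamine synthesis, had 0, 0 and 2.205 in hippocampus and 0.212, 5.25 and 15.04 in striatum (log2FC -4.43 ± 0.81 (SE), adjusted p = 3.10e-04). The lowest 2 striatal libraries for both genes were those labelled 3-2 and 3-4, and the other 11 were above every hippocampal library. Downstream of the receptors, Adcy5, the striatal adenylyl cyclase, was at 60.01 to 1475 (median 109) in hippocampus and 136 to 2594 (median 963) in striatum (log2FC -2.58 ± 0.54 (SE), adjusted p = 0.00109; log2FC -3.69 without the 3 libraries). Gnal, the G protein alpha subunit that couples dopamine and adenosine receptors to it, was at 59.9 to 454 (median 141) in hippocampus and 83.96 to 857 (median 476) in striatum (log2FC -1.60 ± 0.31 (SE), adjusted p = 5.72e-04), and its gamma partner Gng7 at 21.7 to 568 (median 96.1) in hippocampus and 49.7 to 640.2 (median 339.6) in striatum (log2FC -1.35, adjusted p = 0.0226; 0.0967 with the block).

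Adenylyl cyclases and G protein subunits were called in both directions, with 5 of 20 higher in hippocampus and 4 in striatum (5 and 2 with the block, and 6 and 5 without the 3 libraries). Adcy1, a calmodulin-stimulated cyclase, was at 219 to 832 (median 570.4) normalized CPM in hippocampus and 74.8 to 608 (median 191) in striatum (log2FC 1.21 ± 0.28 (SE), adjusted p = 0.00247). Adcy2, a cyclase stimulated by G protein beta-gamma subunits, was at 301 to 691 (median 465) in hippocampus and 65.97 to 562 (median 173) in striatum (log2FC 1.25 ± 0.23 (SE), adjusted p = 3.81e-04). Cyclic nucleotide phosphodiesterases were more often on the striatal side, with 7 of 18 higher in striatum, 1 in hippocampus and 10 not passing (9 and 3 without the 3 libraries). Pde1b, a calmodulin-dependent phosphodiesterase, was at 46.2 to 233 (median 65.9) in hippocampus and 37.2 to 768 (median 301) in striatum (log2FC -2.05 ± 0.34 (SE), adjusted p = 1.01e-04). Its relative Pde1c was at 1.13 to 185 (median 11.98) in hippocampus and 10.4 to 467 (median 143) in striatum (log2FC -2.77 ± 0.62 (SE), adjusted p = 0.002), and Pde4b, which is specific for cAMP, at 119 to 634 (median 279) in hippocampus and 313 to 2200.1 (median 750.3) in striatum (log2FC -1.36 ± 0.26 (SE), adjusted p = 5.34e-04). Pde3a, a phosphodiesterase inhibited by cGMP, was at 0.2304 to 39.03 (median 6.22) in hippocampus and 13.3 to 61.2 (median 27.9) in striatum (log2FC -1.51, adjusted p = 0.0119). For Pde1b and Pde1c the library labelled 5-3 was the only hippocampal library inside the range of the 11 other striatal libraries.

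Ionotropic glutamate receptor genes divided, with 8 of 27 higher in hippocampus, 4 in striatum and 15 not passing (4 and 3 with the block, and 9 and 5 without the 3 libraries). Cnih2, a cornichon protein that slows AMPA receptor closing, had a lowest, median and highest value of 46.5, 143 and 325 normalized CPM in hippocampus and 16.4, 30.5 and 73.99 in striatum (log2FC 2.17 ± 0.26 (SE), adjusted p = 2.89e-06). Its relative Cnih3 had 74.9, 237 and 374 in hippocampus and 29.9, 57.01 and 277 in striatum (log2FC 1.64 ± 0.30 (SE), adjusted p = 3.25e-04), and the AMPA receptor auxiliary protein Shisa6 121, 571 and 1044 in hippocampus and 15.2, 92.03 and 490.4 in striatum (log2FC 1.91 ± 0.43 (SE), adjusted p = 0.00206). On the striatal side stood Cacng4, an AMPA receptor auxiliary subunit, at 0.461 to 182 (median 21.9) in hippocampus and 30.4 to 209 (median 101) in striatum (log2FC -1.85 ± 0.48 (SE), adjusted p = 0.00597). These 4 genes overlapped between the regions with all libraries, and without the 3 libraries Cnih3 and Cacng4 did not. Among 10 metabotropic genes 2 were higher in each region, also without the 3 libraries. Grm2, a presynaptic inhibitory receptor, was at 0.204 to 133 (median 79.7) in hippocampus and 0.887 to 54.2 (median 3.19) in striatum (log2FC 2.65 ± 0.63 (SE), adjusted p = 0.00349), with the library labelled 5-3 the single hippocampal library below 28. Homer3, a scaffold of group I receptors, was also higher in hippocampus (log2FC 3.05 ± 0.45 (SE), adjusted p = 3.19e-05), while the receptors Grm4 (log2FC -1.42 ± 0.42 (SE), adjusted p = 0.0152) and Grm3 (log2FC -1.29 ± 0.31 (SE), adjusted p = 0.00411) were higher in striatum.

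GABA-A receptor genes were higher in striatum for 5 of 14 and in hippocampus for 2 (3 and 1 with the block, and 6 and 2 without the 3 libraries). Gabrg1, the gamma1 subunit, had a lowest, median and highest value of 0.806, 4.29 and 16.95 normalized CPM in hippocampus and 7.74, 22.5 and 76.1 in striatum (log2FC -2.60 ± 0.40 (SE), adjusted p = 5.27e-05). Gabra5, the alpha5 subunit of extrasynaptic receptors, had 7.75, 13.8 and 24.9 in hippocampus and 1.53, 6.27 and 12.98 in striatum (log2FC 1.31 ± 0.28 (SE), adjusted p = 0.00147). Other subunits called higher in striatum were Gabrq (log2FC -3.89, adjusted p = 0.00351), Gabrg3 (log2FC -1.19, adjusted p = 0.00768; 0.115 with the block) and Gabra3 (log2FC -0.96, adjusted p = 0.0333; 0.112 with the block and 0.0996 without the 3 libraries). Gphn, the scaffold gephyrin, was at 271 to 1503 (median 354) in hippocampus, where 3-2 was the highest and the next library held 457, and 458 to 2102 (median 722) in striatum (log2FC -0.88 ± 0.28 (SE), adjusted p = 0.0252).

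Muscarinic, serotonin, adenosine and cannabinoid receptors gave 5 of 19 genes higher in hippocampus and 6 in striatum (6 and 6 without the 3 libraries). Htr2c, the serotonin 2C receptor, had a lowest, median and highest value of 2.44, 29.98 and 109 normalized CPM in hippocampus and 82.6, 187 and 315 in striatum (log2FC -2.26 ± 0.42 (SE), adjusted p = 3.61e-04). Htr1b, the serotonin 1B autoreceptor, had 0, 1.08 and 2.402 in hippocampus and 1.19, 10.3 and 20.1 in striatum (log2FC -3.35 ± 0.58 (SE), adjusted p = 1.95e-04), and Htr1d 0, 0 and 11.9 in hippocampus and 0.424, 9.76 and 19.3 in striatum (log2FC -3.68 ± 0.93 (SE), adjusted p = 0.00544). Chrm4, the muscarinic M4 receptor of direct pathway neurons, had 0, 2.54 and 14.9 in hippocampus and 3.48, 10.9 and 48.3 in striatum (log2FC -1.77, adjusted p = 0.0291). Htr1a, the serotonin 1A receptor, went the other way, with 2.88, 7.09 and 14.6 in hippocampus and 0.704, 2.05 and 12.9 in striatum (log2FC 1.55 ± 0.38 (SE), adjusted p = 0.0043). Its top striatal value was the library labelled 3-2, and the other 12 were at or below 3.47.

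Of 7 opioid genes 5 were higher in striatum and 0 in hippocampus, while 3 were higher in striatum with the block and 4 without the 3 libraries. Oprm1, the mu opioid receptor on which morphine acts, had a lowest, median and highest value of 4.704, 13.9 and 74.04 normalized CPM in hippocampus and 30.5, 53.6 and 137 in striatum (log2FC -1.59 ± 0.36 (SE), adjusted p = 0.00251). Oprk1, the kappa receptor for dynorphin, had 0, 2.84 and 34.2 in hippocampus and 7.69, 31.9 and 72.96 in striatum (log2FC -2.53 ± 0.70 (SE), adjusted p = 0.00998). Both overlapped between the regions. Oprl1, the nociceptin receptor, had the smallest difference of the 5 (log2FC -0.50 ± 0.16 (SE), adjusted p = 0.0269), and did not pass with the block (adjusted p = 0.0953) or without the 3 libraries (0.0529).

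Corticosteroid genes gave 2 of 9 higher in hippocampus and 1 in striatum (0 and 1 with the block, and 1 and 1 without the 3 libraries), with 11.0% and 10.2% called over all genes, so that the striatal share was near that of all genes. Nr3c2, the mineralocorticoid receptor, was at 212 to 1203 (median 730.0) normalized CPM in hippocampus and 149 to 584 (median 324) in striatum (log2FC 1.09 ± 0.25 (SE), adjusted p = 0.00247; 0.0649 with the block). Sgk1, a kinase induced by corticosteroids, was higher in striatum, at 67.7 to 275 (median 119) in hippocampus and 91.3 to 443 (median 219) in striatum (log2FC -0.85 ± 0.23 (SE), adjusted p = 0.00936). Fkbp5, a chaperone of the receptors, was called with all libraries (log2FC 0.53, adjusted p = 0.0375) but not with the block (0.29) or without the 3 libraries (0.0656).

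Potassium channel genes were higher in hippocampus for 8 of 39 and in striatum for 8 (4 and 6 with the block, and 8 and 11 without the 3 libraries). Kcnj6, the G protein-gated channel GIRK2, had a lowest, median and highest value of 169, 653 and 1003 normalized CPM in hippocampus and 17.8, 99.6 and 597 in striatum (log2FC 2.17 ± 0.39 (SE), adjusted p = 2.92e-04). Kcnt1, a sodium-activated channel, was higher in striatum, with 30.9, 133 and 305 in hippocampus and 168, 308 and 569 in striatum (log2FC -1.30 ± 0.26 (SE), adjusted p = 8.54e-04). Among 25 sodium and calcium channel genes 4 were higher in each region (1 and 3 with the block, and 6 and 8 without the 3 libraries), against 11.0% and 10.2% called over all genes. Scn4b, the sodium channel beta4 subunit, which also belongs to the medium spiny neuron list, was at 0 to 78.98 (median 7.29) in hippocampus and 0.882 to 976 (median 179) in striatum (log2FC -4.12 ± 0.73 (SE), adjusted p = 2.24e-04). Cacna2d2, a calcium channel alpha2-delta subunit, was at 11.2 to 109.6 (median 31.1) in hippocampus and 31.8 to 233 (median 139) in striatum (log2FC -1.78 ± 0.32 (SE), adjusted p = 2.43e-04), and Scn3b, the beta3 subunit, was higher in hippocampus, at 126 to 302 (median 195) in hippocampus and 56.1 to 184 (median 102) in striatum (log2FC 1.06 ± 0.16 (SE), adjusted p = 5.46e-05).

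Axon guidance and adhesion genes were higher in hippocampus for 16 of 48 and in striatum for 10 (9 and 4 with the block, and 18 and 12 without the 3 libraries). Slit1, a repellent ligand for Robo receptors, had a lowest, median and highest value of 202, 567 and 1094 normalized CPM in hippocampus and 25.6, 84.6 and 381 in striatum (log2FC 2.49 ± 0.37 (SE), adjusted p = 3.44e-05). Nrp1, the neuropilin that binds class 3 semaphorins, had 125, 319 and 547 in hippocampus and 30.5, 52.7 and 276 in striatum (log2FC 2.10 ± 0.31 (SE), adjusted p = 3.36e-05). Its ligand Sema3a was higher in striatum, with 0.801, 3.499 and 49.3 in hippocampus and 10.8, 38.9 and 104 in striatum (log2FC -2.08 ± 0.51 (SE), adjusted p = 0.00417). All 3 genes separated the regions without the 3 libraries. Retinoic acid and thyroid genes gave 2 of 15 higher in hippocampus and 4 in striatum (1 and 2 with the block, and 2 and 4 without the 3 libraries). Besides Rarb and Rxrg these included the retinoid receptor Rara, at 7.56 to 34.4 (median 13.7) in hippocampus and 3.27 to 13.5 (median 5.82) in striatum (log2FC 1.11 ± 0.24 (SE), adjusted p = 0.0016), and the retinoid-binding protein gene Crabp1 (log2FC -3.56, adjusted p = 0.00371; 0.0502 with the block), higher in striatum.

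Immediate early genes, which neuronal activity induces, were higher in hippocampus for 8 of 20 and in striatum for 0, with 5 passing with the block and 8 without the 3 libraries (median log2FC 0.51). Nr4a2, an orphan nuclear receptor, had a lowest, median and highest value of 6.903, 22.6 and 126 normalized CPM in hippocampus and 0, 0.515 and 21.1 in striatum (log2FC 3.25 ± 0.79 (SE), adjusted p = 0.00387). Bdnf, the neurotrophin, had 7.94, 51.2 and 85.02 in hippocampus and 0.872, 2.43 and 49.96 in striatum (log2FC 2.56 ± 0.60 (SE), adjusted p = 0.00303). The highest 2 striatal values of both genes were the libraries labelled 3-2 and 3-4, and without the 3 libraries the regions did not overlap. Among the AP-1 factors, Jun was at 4.07 to 32.2 (median 17.3) in hippocampus and 0.7696 to 7.87 (median 4.22) in striatum (log2FC 1.99 ± 0.35 (SE), adjusted p = 2.19e-04), Junb at 12.9 to 115 (median 25.9) in hippocampus and 2.801 to 28.5 (median 6.98) in striatum (log2FC 1.72 ± 0.38 (SE), adjusted p = 0.00192) and Jund at 2.24 to 15.2 (median 5.77) in hippocampus and 0.718 to 4.596 (median 2.21) in striatum (log2FC 1.33, adjusted p = 0.00471; 0.112 with the block). A control list of 16 synaptic vesicle and release genes gave 2 higher in hippocampus, 0 in striatum and 14 not passing (2 and 2 without the 3 libraries). The called members were the SNARE gene Stx1a (log2FC 1.003, adjusted p = 0.0234) and the vesicle phosphoprotein gene Syn2 (log2FC 0.45, adjusted p = 0.0253), and neither passed with the block (0.0503 and 0.0718).

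**Figure D3:**
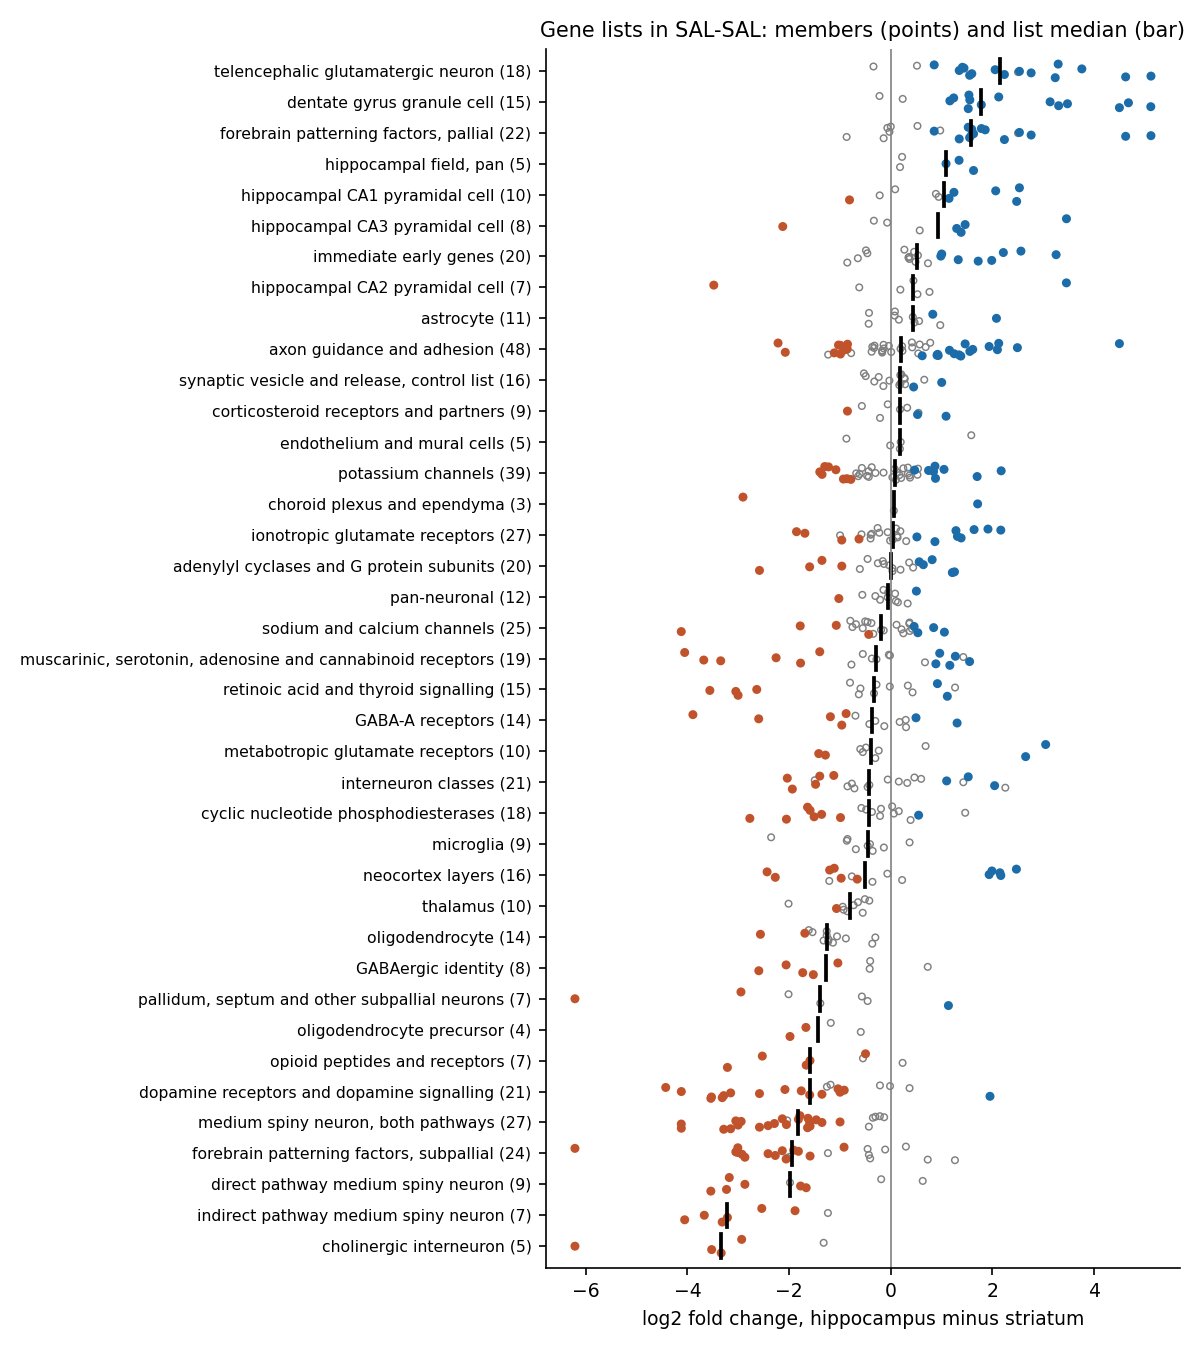
Each point is 1 member of a gene list, placed by its log2FC (x axis, hippocampus minus striatum) with the number of members tested in parentheses, filled where the adjusted p was under 0.05 (blue higher in hippocampus, orange in striatum) and open otherwise, and the bar is the list's median. Glutamatergic, dentate and pallial lists lie to the right and medium spiny neuron, dopamine, opioid and cholinergic lists to the left, with the synaptic vesicle control list near 0. Also to the left lie the subpallial, GABAergic identity (median -1.28), oligodendrocyte (-1.25), oligodendrocyte precursor (-1.42) and pallidum and septum (-1.39) lists.

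GABAergic identity genes were higher in striatum for 5 of 8, and 3 did not pass (6 of 8 without the 3 libraries). Gad1, a synthetic enzyme of GABA, was at 50.2 to 227 (median 85.3) normalized CPM in hippocampus and 60.7 to 497 (median 225) in striatum (log2FC -1.52 ± 0.24 (SE), adjusted p = 5.53e-05). Its partner Gad2 was at 41.00 to 198 (median 68.7) in hippocampus and 66.6 to 487 (median 255) in striatum (log2FC -1.73 ± 0.27 (SE), adjusted p = 5.45e-05), and Slc32a1, the vesicular GABA transporter, at 0.235 to 10.6 (median 2.95) in hippocampus and 3.23 to 58.1 (median 15.3) in striatum (log2FC -2.60 ± 0.43 (SE), adjusted p = 1.22e-04). The lowest striatal value of each was the library labelled 3-4 and the highest hippocampal value that labelled 5-3, and the regions were apart without the 3 libraries. Markers of interneuron classes were mixed, with 3 of 21 higher in hippocampus, 5 in striatum and 13 not passing. With the 3 libraries left out 6 were higher in each region, and the median log2FC moved from -0.42 to -0.02. Pvalb, of fast-spiking interneurons, was at 1.12 to 29.3 (median 4.003) in hippocampus and 3.98 to 144 (median 14.7) in striatum (log2FC -1.94, adjusted p = 0.0262; 0.0778 with the block), and Sox6, a factor of their lineage, at 15.4 to 65.1 (median 29.9) in hippocampus and 42.5 to 278 (median 111) in striatum (log2FC -2.04 ± 0.25 (SE), adjusted p = 3.31e-06). Vip, a peptide of cortical and hippocampal interneurons, was at 0 to 39.9 (median 14.4) in hippocampus and 0 to 33.8 (median 0.768) in striatum (log2FC 2.26 ± 0.87 (SE), adjusted p = 0.065), and passed without the 3 libraries (log2FC 4.29, adjusted p = 3.62e-05) and with the block (0.0401). Sst (log2FC -0.71, adjusted p = 0.385) and Lhx6 (log2FC -0.45, adjusted p = 0.385) did not pass. Cholinergic interneuron markers were higher in striatum for 4 of 5, also without the 3 libraries. Chat, choline acetyltransferase, was at 0 to 17.1 (median 0) in hippocampus and 0 to 52.8 (median 18.4) in striatum (log2FC -3.34 ± 0.95 (SE), adjusted p = 0.0126), and Slc5a7, the choline transporter, at 0 to 6.01 (median 0.0933) in hippocampus and 1.39 to 21.7 (median 10.3) in striatum (log2FC -3.52 ± 0.81 (SE), adjusted p = 0.00247). Slc18a3, the vesicular acetylcholine transporter, was listed at 0 in all libraries.

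Pan-neuronal genes gave 1 of 12 higher in each region and 10 not passing (1 and 1 without the 3 libraries, and 1 and 0 with the block). The NeuN gene Rbfox3 itself was at 471 to 3235 (median 1284) normalized CPM in hippocampus and 295 to 2447 (median 1152) in striatum (log2FC 0.33 ± 0.30 (SE), adjusted p = 0.472). The vesicle protein genes Snap25 (log2FC 0.14 ± 0.17 (SE), adjusted p = 0.605) and Syt1 (log2FC 0.10 ± 0.15 (SE), adjusted p = 0.689) did not pass either. Markers of non-neuronal cells were also counted. The summed level of 14 oligodendrocyte genes was 213 to 1097 CPM in hippocampus (median 389) and 177 to 5492 in striatum (median 498), highest in striatum 9-4, and 2 of the 14 were higher in striatum (10 without the 3 libraries and 0 with the block). Of 4 precursor markers 2 were higher in striatum, also without the 3 libraries, among them Pdgfra (log2FC -1.98 ± 0.49 (SE), adjusted p = 0.00488), at 0.0509 to 3.603 (median 1.43) in hippocampus and 1.41 to 32.2 (median 3.63) in striatum. The summed level of 13 astrocyte genes was 419 to 2147 CPM in hippocampus and 405 to 1223 in striatum, 2 of 11 tested were higher in hippocampus (2 without the 3 libraries and 1 with the block), and the defining marker Gfap was listed at 0 in all libraries. Microglial genes summed to 21.3 to 52.9 CPM and 13.8 to 145, with 0 of 9 called (1 without the 3 libraries) and P2ry12 listed at 0. Endothelial and mural genes gave 0 of 5 called, and choroid plexus and ependymal genes 1 of 3 higher in each region, in both cases also without the 3 libraries. The part of these cells in the region differences was not tested.

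Markers of neighbouring regions were also measured. The summed level of 11 thalamic genes was 304 to 3037 CPM in hippocampus (median 1227) and 791 to 5540 in striatum (median 2990), and 1 of 10 tested was higher in striatum (1 without the 3 libraries and 0 with the block). Tcf7l2, a thalamic transcription factor, ran from 1.53 to 299 (median 45.1) normalized CPM in hippocampus and 2.52 to 474 (median 102) in striatum (log2FC -0.86 ± 0.70 (SE), adjusted p = 0.416) and did not pass. In the other conditions, where 27.8% of all genes were higher in striatum against 10.2% in SAL-SAL, 7 of the 10 were, Tcf7l2 among them (log2FC -2.09, adjusted p = 1.42e-05). Neocortical layer genes gave 5 of 16 higher in hippocampus and 6 in striatum (3 and 3 with the block, and 5 and 8 without the 3 libraries), with Tle4, of deep layers, at 77.8 to 140.4 (median 106) in hippocampus and 89.8 to 340.4 (median 157) in striatum (log2FC -0.66, adjusted p = 0.00439; 0.0603 with the block). Of 7 genes of pallidum, septum and other subpallial neurons 2 were higher in striatum and 1 in hippocampus, the cation channel gene Trpc4 (1 and 1 without the 3 libraries), at 102 to 292 (median 192) in hippocampus and 24.3 to 448 (median 36.99) in striatum (log2FC 1.14 ± 0.39 (SE), adjusted p = 0.0395). Its top striatal value, 448, was the library labelled 3-2. The part of tissue from neighbouring regions was not tested.

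Of the 14133 genes, 20 (0.142%) had every hippocampal library above every striatal library and 8 (0.0566%) the reverse, with all 26 libraries under their labels. Without the 3 libraries the counts were 144 (1.02%) and 204 (1.44%). Camk2a, the calcium/calmodulin kinase of glutamatergic synapses, had a lowest, median and highest value of 1087, 1537 and 2185 normalized CPM in hippocampus and 266, 539 and 1028 in striatum (log2FC 1.44 ± 0.16 (SE), adjusted p = 1.37e-06). Bcl6, a transcriptional repressor at chr16:23965052-23988852 (mm10), had 19.3, 43.3 and 77.9 in hippocampus and 6.24, 10.00 and 18.3 in striatum (log2FC 2.15 ± 0.20 (SE), adjusted p = 4.53e-08). Rae1, an mRNA export and mitotic checkpoint factor at chr2:173000117-173015739, had 62.3, 84.9 and 104 in hippocampus and 34.8, 40.7 and 45.6 in striatum (log2FC 1.09 ± 0.09 (SE), adjusted p = 5.10e-09), the smallest adjusted p of all genes. Elmo2, an engulfment and cell motility protein at chr2:165288031-165326479, had 176, 227 and 314 in hippocampus and 70.6, 101 and 148 in striatum (log2FC 1.24 ± 0.11 (SE), adjusted p = 1.93e-08). In these 4 genes the libraries labelled 3-2, 3-4 and 5-3 sat on the side of their label. The choice of genes without overlap requires this, so it says nothing about whether those labels hold. Rapgefl1, a guanine nucleotide exchange factor-like gene at chr11:98836785-98853697, was at 126 to 249 (median 179.8) in hippocampus and 22.3 to 115 (median 42.2) in striatum (log2FC 1.93 ± 0.19 (SE), adjusted p = 1.41e-07), and the other named genes of this kind, Fam131a, Gal3st3, Sh3bp5, Lppr2, Creg2, Pfkl and Ifngr2, had log2FC from 1.24 (Ifngr2) to 2.10 (Fam131a).

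Among genes with every striatal library higher, Pcsk6, a proprotein convertase at chr7:65861734-66050386, had a lowest, median and highest value of 2.46, 7.02 and 12.5 normalized CPM in hippocampus and 15.3, 23.3 and 63.8 in striatum (log2FC -1.96 ± 0.26 (SE), adjusted p = 8.16e-06). Cdh7, a type II cadherin at chr1:109982431-110140157, had 1.58, 18.1 and 42.4 in hippocampus and 46.3, 60.7 and 83.5 in striatum (log2FC -1.67 ± 0.30 (SE), adjusted p = 3.00e-04). The RNA-binding protein genes Mbnl1, a splicing regulator at chr3:60472830-60629750, and Hnrnpd, a regulator of mRNA decay at chr5:99955935-99978938, had smaller differences. Mbnl1 was at 87.9 to 133 (median 114) in hippocampus and 136 to 273 (median 196) in striatum (log2FC -0.85 ± 0.11 (SE), adjusted p = 8.16e-06), and Hnrnpd at 14.5 to 22.7 (median 16.7) in hippocampus and 26.6 to 41.8 (median 34.3) in striatum (log2FC -0.91 ± 0.10 (SE), adjusted p = 1.56e-06). Hspa4l (log2FC -0.93, adjusted p = 6.94e-05), Zdhhc17 (log2FC -0.60, adjusted p = 4.63e-05), AI314180 (log2FC -0.57, adjusted p = 2.78e-04) and Kidins220 (log2FC -0.43, adjusted p = 7.25e-04) completed the 8. Rae1, Elmo2, Bcl6, Camk2a, Pcsk6, Cdh7, Mbnl1 and Hnrnpd all passed with the animal as a block. Musk, the receptor kinase of the neuromuscular junction at chr4:58285960-58374303, was among the 5 smallest adjusted p on the striatal side (1.26e-06): 1 read was counted over all 13 hippocampal libraries and 406 over the 13 striatal libraries, a ratio of 349 (exact 95% interval 62.3 to 13800, covering counting error only). Of the genes named with values here, Bcl6, Fam131a, Gal3st3, Sh3bp5, Creg2, Hnrnpd, Kidins220, Ppp1r1b, Penk, Rarb, Meis1, Nfix, Prox1, Dsp, Zbtb20, Gnal, Adcy2, Cnih2, Grm2, Homer3, Gabra5, Gphn, Htr1b, Oprm1, Nr3c2, Kcnj6, Cacna2d2, Pde3a, Slc32a1, Pdgfra, Bdnf, Jun, Junb, Jund, Syn2, Drd5 and Amigo2 have exons that overlap a gene on the opposite strand, and their values are uncertain to that extent because the use of strand in counting is not given in the sources used here.

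**Figure D4:**
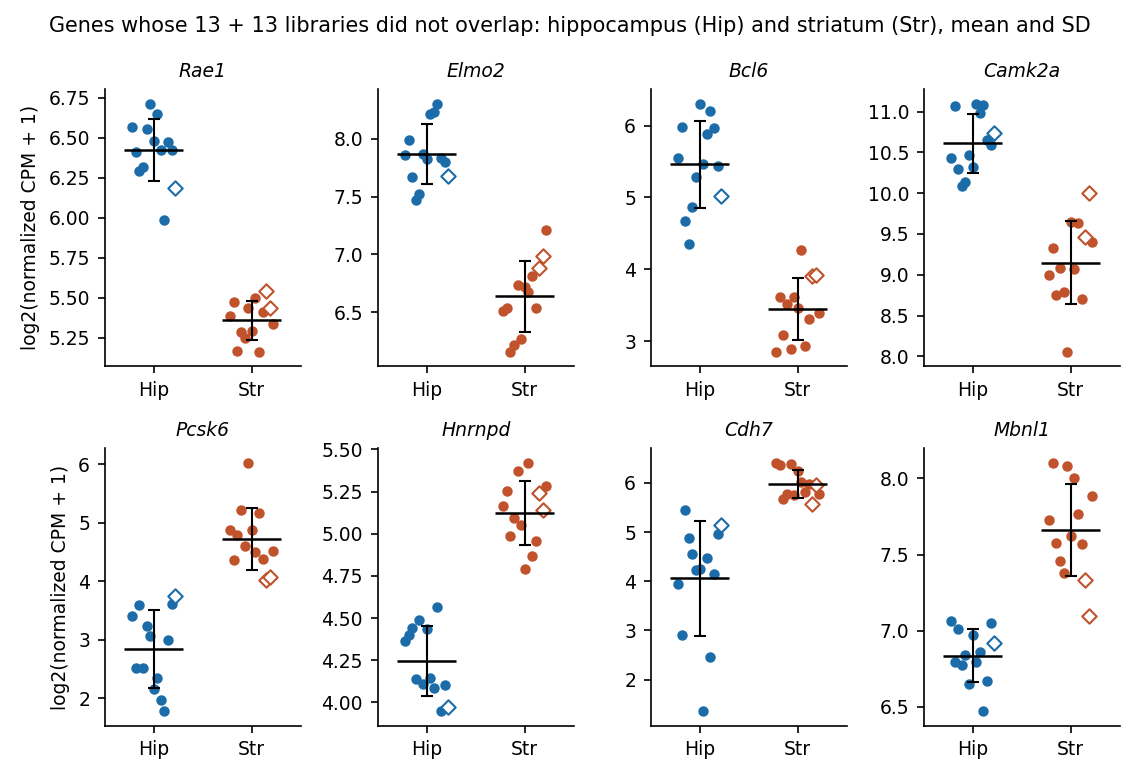
Levels by library, as log2(normalized CPM + 1) on the y axis, of 4 genes higher in every hippocampal library (Hip, n = 13; top) and 4 higher in every striatal library (Str, n = 13; bottom), with the mean (bar), the SD (whiskers) and the libraries against their labels as open diamonds. The regions do not overlap in any panel, and log2FC runs from 2.15 for Bcl6 to -1.96 for Pcsk6.

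Whether the region difference itself differed between the sexes was tested as an interaction. The region by sex interaction called 0 of 14133 genes in edgeR, with 431 at an unadjusted p under 0.05, and 2 in DESeq2, Slc9a4 and 2610028E06Rik, which were named after their values were seen. Slc9a4, a sodium-proton exchanger, was highest in the library labelled hippocampus 5-3, at 25.5 normalized CPM, and its unadjusted p in edgeR was 0.00898.

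The 81 hippocampal and striatal libraries of MOR-SAL, SAL-LPS and MOR-LPS that met the minimum on total count, of 83, share no library with the SAL-SAL comparison. Their full replicate numbers are not among the 15 of SAL-SAL, but the SAL-LPS libraries carry all 7 first parts found in SAL-SAL, and what these libraries share through them was not tested. Fitted over the same 14133 genes with condition and sex as terms, they called 7595 genes (53.7%), 3662 higher in hippocampus (25.9%) and 3933 in striatum (27.8%). With the 2 libraries of low total count included, 7418 genes were called. Of the 2998 SAL-SAL genes 2990 (99.7%) had the same direction there, 2832 (94.5%) were also called in that direction and 0 were called in the other. Across the 14133 genes, which are not independent replicates, the log2FC of the 2 comparisons correlated at Pearson's r of 0.879 and Spearman's rho of 0.842. Neurod6 (log2FC 6.18, adjusted p = 1.47e-22), C1ql2 (5.19, 3.86e-18), Drd2 (-3.58, 2.73e-10), Drd1 (-2.95, 8.52e-11) and Lhx8 (-5.33, 2.57e-13) were called there with the sign they had in SAL-SAL. By list, with 53.7% of all genes called, 25 of 27 shared medium spiny neuron markers were higher in striatum, 17 of 18 glutamatergic markers in hippocampus and 15 of 20 immediate early genes in hippocampus. Not every SAL-SAL call was met there. Fkbp5 (0.01, 0.928), Oprl1 (-0.11, 0.509), Crym, a thyroid hormone-binding protein gene (0.17, 0.641; 0.92 and 0.0494 in SAL-SAL), and Cbln1, a synapse organizer (-0.77, 0.15; -2.22 and 0.0169 in SAL-SAL) did not pass.

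**Figure D5:**
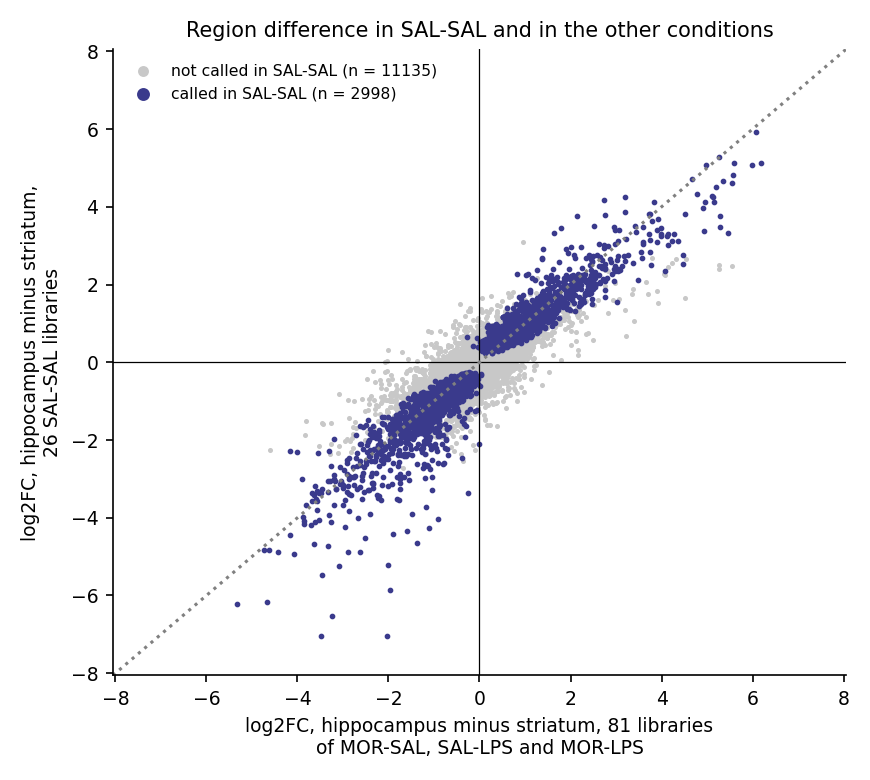
Each point is 1 of 14133 genes, placed by its log2FC (hippocampus minus striatum) in the 81 libraries of the other conditions (x axis) and in the 26 SAL-SAL libraries (y axis), with the 2998 genes called in SAL-SAL in dark blue and equality dotted. The dark points lie in the lower left and upper right, with 2990 of 2998 on the same side of 0 in both.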

How the data were processed

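RNA was extracted from sorted NeuN+ nuclei and made into libraries with a modified Smart-seq3 protocol and Tn5 tagmentation. The authors trimmed reads with Trim Galore 0.6.7, aligned them to mm10 with STAR 2.7.10a and deposited raw counts per gene for each region, which are not normalized. Their CPM tables were not used here, and the use of strand in counting is not given in the sources used here. Groups were taken from the labels.

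The 2 count tables were joined on gene symbol, and genes with a mean of at least 1 CPM over the 26 SAL-SAL libraries were kept. Counts were scaled by TMM and fitted with edgeR 4.0.16 (R 4.3.3) by the quasi-likelihood method with sex and region as terms, and p-values were adjusted by the Benjamini-Hochberg method with a threshold of 0.05. The standard error is that of the log2FC. DESeq2 1.42.0 and limma 3.58.1 served as alternatives. The procedure was run on simulated counts in which 200 of 14133 genes changed. The edgeR test recovered 85% of 4-fold and 53% of 2-fold changes and called 5 unchanged genes. With the animal block it recovered 81% and 42%. The simulated counts were drawn independently, with nothing shared within an animal and no library against its label, so these values do not cover such effects. Named genes were the defining markers of the lists, up to 6 called genes per pathway list by size of change and, in each direction, the 12 largest changes without overlap between the regions and with at least 10 normalized CPM in the higher one, and the 5 smallest adjusted p. Ntf3, Pcp4, Slc9a4, 2610028E06Rik and other genes outside this rule were named after their values were seen. The members and lists were chosen with earlier results of these data known. Positions are from GENCODE M21 (mm10).

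Replicate numbers shared by the regions were taken as the same animal, which the labels do not state in words, so that 11 animals have both libraries and are paired. The correlation of their deviations from the region means ran from -0.508 to 0.129 with a median of -0.0281.

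Results of some genes are not reported here.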

Additional observations from a re-analysis of the deposited data

How the results depend on the processing

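The 2998 calls stayed within 1.5 times under DESeq2 (3711), DESeq2's size factors (3051), library-size scaling (2802), limma (3324), voom (3227), other expression filters (2788 to 3722), counts thinned to the lowest total (2983), no sex term (2974), a block on the first part of the replicate number (2832) and females alone (2668). With the animal as a replicate block, which pairs the 2 libraries of a replicate number, 1649 genes passed, against 2132 in the same 11 animals with no replicate block and 2039 with the block but without the 3 libraries against their labels. Counts summed over that first part gave 1860, males alone 184 and males without the 3 libraries 1028. Leaving out the libraries of 1 first part at a time gave 1670 (without 9) to 3932 (without 5) calls. The count of at least 2-fold, 1272, became 2156 when all genes with a total above 10 were tested, 145 in males alone and 202 when a 2-fold difference was itself tested, and 906 to 1724 when 1 first part was left out. Keeping genes with a total above 10 also moved the share of calls higher in hippocampus from 51.8% to 41.1%. That share was 46% under DESeq2, 47.9% with DESeq2's size factors and 46.3% under voom, against 54.5% with library-size scaling. The region by sex interaction called 0 genes in edgeR and 2 in DESeq2. In the other conditions, the 7595 calls became 3546 in MOR-SAL, 3643 in SAL-LPS and 4633 in MOR-LPS alone. Of 163 genes under 28 settings, 394 combinations lost the call, 105 of them in males alone, 39 gained it and 1 turned direction, Gphn, at a log2FC of 0.075 in males without the 3 libraries (adjusted p = 0.963). The other 4119 combinations kept their result. Some of the 163 genes were not tested where a mean of at least 1 CPM in each region was required, and those combinations are not counted. Subsets of the libraries also hold fewer samples, and the causes of the changed counts and calls were not tested. A minimum on total count removed 0 SAL-SAL libraries, so that alternative gave no separate value there, and 2 libraries of the other conditions, where 7418 genes were called with no minimum. The settings without the 3 libraries and that of the 11 animals with no replicate block were chosen after seeing the data.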
